A study of Mus musculus with 4 samples.

Results

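The Acsm genes encode mitochondrial medium-chain acyl-CoA synthetases, enzymes that join coenzyme A to carboxylic acids of medium chain length and to aromatic acids such as benzoate. The family members considered here were Acsm1, Acsm2, Acsm3 and Acsm5, 4 of 21279 genes with a unique molecular identifier (UMI) in the deposited counts. They were listed by name with their levels across proximal tubule segments and libraries already known, so levels across segments and cell groups are given as a description without a test. Genotype was compared by tests over all genes, whose p-values for these 4 genes are not independent of that choice. All 4 genes had UMIs in every library.

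Renal cortex of one kidney per mouse was digested with collagenase and profiled by Drop-seq, which traps single cells in droplets with barcoded beads, tags every transcript it captures with a cell barcode and a UMI, and counts it once at its 3′ end. Levels were therefore not divided by transcript length. The 2 Akita libraries came from C57BL/6-Ins2Akita/J mice, which carry a mutated insulin gene Ins2 and become diabetic, aged 116 days (replicate 1) and 119 days (replicate 2). The 2 wild-type libraries came from mice aged 45 days (replicate 1) and 51 days (replicate 2), and the labels name no drug treatment. Age ran with genotype, so their effects cannot be told apart. Each library is labelled as 1 sample, and the housing time in the growth protocol is longer than any of these ages.

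An acyl-CoA synthetase activates its acid with ATP, and the resulting thioester can enter beta-oxidation or be joined to glycine. In the kidney, proximal tubule mitochondria burn fatty acids as a main fuel and also make glycine conjugates, which organic anion transporters pass into the urine. The proximal tubule runs from the convoluted S1 segment, which takes up most of the filtered glucose, to the straight S3 segment. Acsm2 is known as a kidney enriched gene, Acsm1 encodes a butyryl-CoA synthetase, Acsm3 is the mouse counterpart of the rat SA gene first described in hypertensive strains, and Acsm5 is a less studied member.

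The members lie on 1 strand of mouse chromosome 7 within 268.051 kb (GRCm38, GENCODE vM21). Acsm5 (ENSMUSG00000030972.6) spans chr7:119519463-119545551, Acsm2 (ENSMUSG00000030945.17) spans chr7:119554340-119600690, Acsm1 (ENSMUSG00000033533.14) spans chr7:119607026-119662515 and Acsm3 (ENSMUSG00000030935.15) spans chr7:119760923-119787513, all on the plus strand. Acsm4 lies between Acsm1 and Acsm3 and had 0 UMIs in all 4 libraries. The gap from Acsm5 to Acsm2 is 8.788 kb and that from Acsm2 to Acsm1 is 6.335 kb.

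The 250 bases upstream of the start site are shown for the most abundant member, Acsm2 (chr7:119554090-119554339, plus strand), and for the member that varied most along the tubule, Acsm3 (chr7:119760673-119760922, plus strand), as RefSeq gives them on GRCm38.p6. Capitals mark a match to the HNF1 half-site GTTAAT, read on the minus strand as ATTAAC, and a match to the TATA box letters TATAAA.
Acsm2: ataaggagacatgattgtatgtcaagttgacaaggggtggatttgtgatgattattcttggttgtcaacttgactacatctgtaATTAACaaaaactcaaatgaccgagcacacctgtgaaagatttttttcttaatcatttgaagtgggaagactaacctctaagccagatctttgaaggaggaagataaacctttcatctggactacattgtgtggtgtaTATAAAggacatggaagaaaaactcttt
Acsm3: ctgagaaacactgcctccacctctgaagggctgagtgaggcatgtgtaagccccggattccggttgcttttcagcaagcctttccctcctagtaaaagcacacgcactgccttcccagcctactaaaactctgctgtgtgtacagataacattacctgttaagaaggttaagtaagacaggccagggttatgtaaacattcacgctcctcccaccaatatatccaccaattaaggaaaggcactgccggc
In the Acsm2 sequence, the HNF1 half-site begins 166 bases before the start and the TATA box letters begin 28 bases before it. Both strands were also searched for AGGTCA, a nuclear receptor half-site, and AGAACA, an androgen receptor half-site, and no matches overlapped. The Acsm3 sequence held none of these 4 motifs. Acsm1 held 1 AGGTCA match on the minus strand, 107 bases before its start, and Acsm5 and the second RefSeq start of Acsm2 held none. Of 32851 mouse promoters of the same length, 6.43% held GTTAAT, 14.0% AGGTCA, 16.1% AGAACA and 12.4% TATAAA on either strand. GC content was 36% in the Acsm2 sequence and 49.2% in the Acsm3 sequence, against a median of 52.4% over all promoters. These matches describe the letters and were not tied to any measurement.

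The 4 libraries held 1016719 to 1303453 UMIs. Between 311 and 600 barcodes per library were retained as cells, 1916 in all, with medians of 746.5 to 835 UMIs. Clustering without the 4 Acsm genes placed 1451 cells in proximal tubule-like clusters, and 301 of these were S3-like and 207 S1-like. The other named clusters were intercalated-like (115 cells) and connecting tubule-like (60 cells). A further cluster of 286 cells was led by Pvalb, Egf and Umod, held markers of thick limb and distal convoluted tubule in equal number, and is called the distal cluster. In the proximal cells all 14 proximal markers had UMIs, summing to 67606 to 86705 UMIs relative to a total of 1000000 (CPM), while thick limb markers summed to 1081 to 1291 CPM, connecting tubule markers to 590 to 1035 CPM, distal convoluted tubule markers to 278 to 776 CPM, erythroid markers to 55.4 to 480 CPM and endothelial markers to at most 9.04 CPM, with lymphocyte markers at 0. Akita replicate 2 and wild-type replicate 1 shared barcodes: 438 of the 600 retained cells in Akita replicate 2 (73.0%) and 454 of the 564 in wild-type replicate 1 (80.5%) had a barcode that the other library also held, while Akita replicate 1 shared few with any library. Ratios between cell groups and fold changes are therefore also given without the shared barcodes. In sums over cells, fewer cells of a type and less RNA per cell cannot be told apart.

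Acsm2 made up nearly all of the family's RNA. In proximal tubule-like cells Acsm2 had 4863 CPM (replicate 1) and 5141 CPM (replicate 2) in Akita libraries, against 4716 CPM and 5081 CPM in wild-type libraries. The genotypes overlapped, and the libraries lay close to their mean of 4950 ± 196 CPM (SD, n = 4). This made Acsm2 the gene ranked 15 of 18694 by mean level in these cells and 0.495% of all their UMIs.

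Acsm1, the butyrate-activating member, had 185 CPM and 136 CPM in Akita proximal cells, against 132 CPM and 112 CPM in wild-type proximal cells. Both Akita libraries were above both wild-type libraries, although Akita replicate 2 exceeded wild-type replicate 1 by little. Acsm3 had 46.2 CPM and 135 CPM in Akita proximal cells, against 78.5 CPM and 148 CPM in wild-type proximal cells. Here the 2 replicates of each genotype lay far apart, with Akita replicate 1 lowest and wild-type replicate 2 highest, and the genotypes overlapped. Acsm5 had 41.6 CPM and 39.0 CPM in Akita proximal cells, against 38.5 CPM and 27.1 CPM in wild-type proximal cells, from 15 to 25 UMIs per library. Both Akita libraries were again above both wild-type libraries, by less than 1 CPM at the nearest pair.

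**Figure D1:**
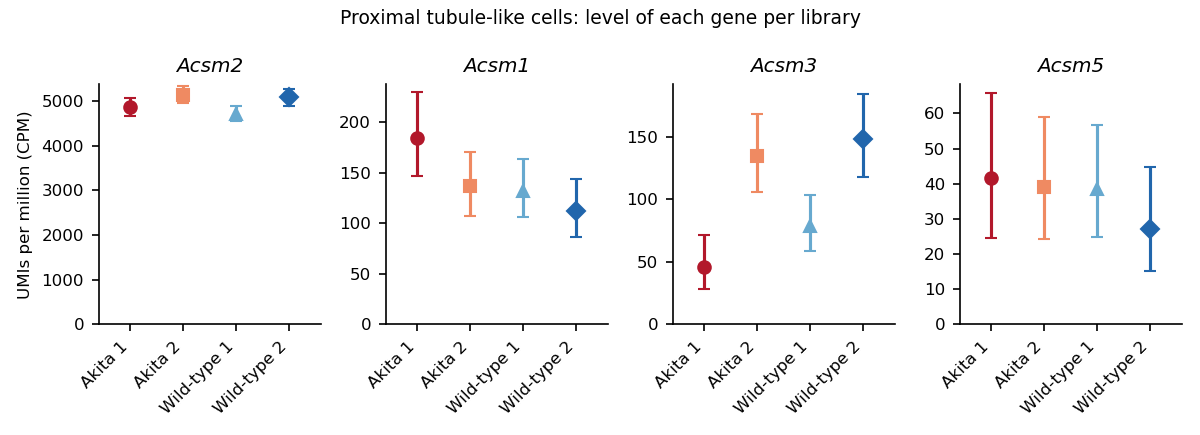
Level of each Acsm gene in proximal tubule-like cells in each library, in CPM, with 95% exact Poisson intervals that cover counting error only. Acsm2 sits between 4716 and 5141 CPM in all 4 libraries, while Acsm3 ranges from 46.2 CPM in Akita replicate 1 to 148 CPM in wild-type replicate 2.

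By mean level over the 4 libraries the order was Acsm2, Acsm1 (141 ± 30.8 CPM), Acsm3 (102 ± 47.9 CPM) and Acsm5 (36.5 ± 6.41 CPM; SD, n = 4 each). Acsm1 and Acsm3 were neighbours whose ranges over libraries overlapped, and Acsm3 was ahead of Acsm1 in wild-type replicate 2 and behind it in the other libraries. Every other neighbouring pair kept its order in all 4 libraries. By rank among genes with a UMI in these cells, Acsm1 stood at 977, Acsm3 at 1414 and Acsm5 at 3606.

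Most proximal cells held an Acsm2 molecule. A UMI was found in 89.5% ± 1.41 of proximal cells for Acsm2, 15.1% ± 3.72 for Acsm1, 8.81% ± 2.17 for Acsm3 and 4.65% ± 0.58 for Acsm5 (SD, n = 4 libraries). Median depth was 786 UMIs in proximal cells and 804.5 UMIs in the distal cluster, where the shares were 36.0% for Acsm2 and 3.50% for Acsm1, and 2 of 286 cells (0.699%) held a UMI of Acsm3 and of Acsm5. After each cell was thinned to 500 UMIs, which left out 370 of 1451 proximal and 70 of 286 distal cells as shallower, Acsm2 was found in 85.8% of proximal cells and 18.1% of distal cells. Acsm3 was then found in 37 of 1081 proximal cells (3.42%) and in 0 of 216 distal cells, which allows a share of up to 1.39%.

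All 4 members were higher in proximal tubule-like cells than in the distal cluster in all 4 libraries. Beside the proximal levels of Acsm2 given above, the distal cluster had 464 CPM and 319 CPM in Akita libraries, and 347 CPM and 639 CPM in wild-type libraries. The proximal level of Acsm2 was 11.4-fold that of the distal cluster over all libraries (95% counting interval 9.90 to 13.3). For Acsm1 the ratio was 6.11 (3.28 to 12.9, with 10 distal UMIs), and Acsm3 and Acsm5 had only 2 UMIs each in the distal cluster, giving ratios of 23.0 (6.28 to 191) and 8.02 (2.15 to 67.4). Without the shared barcodes the ratios were 9.39 (7.81 to 11.4) for Acsm2, 4.75 (2.26 to 12.0) for Acsm1, 11.7 (3.18 to 98.0) for Acsm3 and 3.81 (0.987 to 32.6) for Acsm5, the last with an interval that reaches 1. On the log2(CPM + 10) scale the difference, proximal minus distal, was 3.51 ± 0.44 for Acsm2, 2.97 ± 0.67 for Acsm3, 2.20 ± 0.17 for Acsm1 and 1.71 ± 0.69 for Acsm5 (SD, n = 4 libraries).

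Mean levels of Acsm2 and Acsm1 were lower in the smaller classes as well. Acsm2 had 360 ± 179 CPM in intercalated-like cells and 676 ± 387 CPM in connecting tubule-like cells (SD, n = 4). Acsm1 had 28.2 ± 22.9 CPM and 9.54 ± 19.1 CPM in these classes, from 4 UMIs and 1 UMI. Acsm3 had 13.0 ± 15.1 CPM in intercalated-like cells and 0 UMIs in connecting tubule-like cells, and Acsm5 had 0 UMIs in both. Per library, 0 UMIs allows 73.0 to 187 CPM in intercalated-like cells and 114 to 718 CPM in connecting tubule-like cells. These limits lie above the proximal mean of Acsm5, and in connecting tubule-like cells also above that of Acsm3. The libraries' counts of 0 therefore cannot show a lower level there. Proximal markers were also present outside the proximal clusters, at 8299 to 15438 CPM per library. Per 1000 proximal marker UMIs, Acsm2 had 59.3 to 71.9 UMIs in proximal cells, against 37.8 to 43.3 UMIs in retained cells outside the proximal clusters, over the 4 libraries. Barcodes not retained as cells had 94.0 to 103 Acsm2 UMIs per 1000 proximal marker UMIs and 2173 to 2780 CPM of Acsm2, above its mean in every class outside the proximal tubule. The part of free RNA in the levels outside the proximal clusters was not tested.

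**Figure D2:**
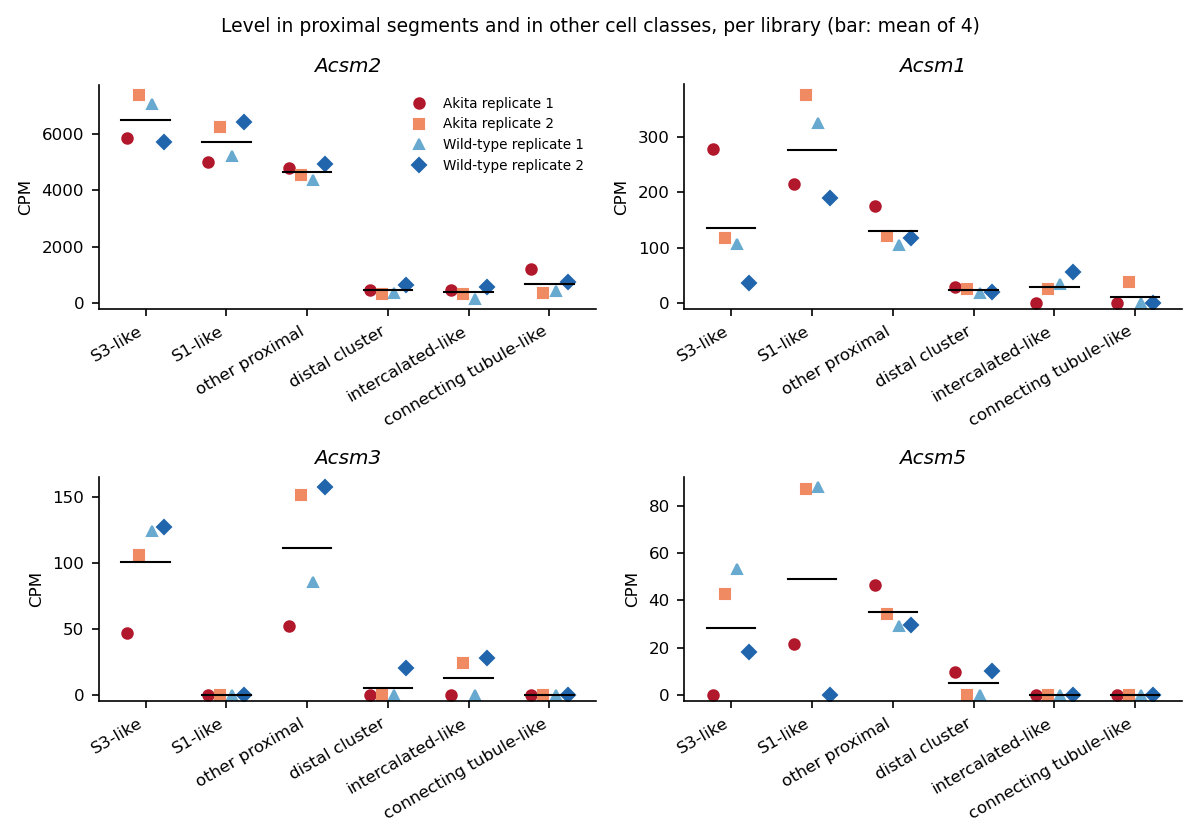
Level of each Acsm gene in CPM by cell group, 1 point per library and a bar at the mean of 4. Acsm3 is at 0 in the S1-like cells of all 4 libraries and between 46.5 and 127 CPM in the S3-like cells. All 4 genes have low means outside the proximal tubule, where counts of 0 in the small classes do not show a lower level.

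Along the proximal tubule, the members did not follow one pattern. S3-like cells were a cluster with 4 S3 markers among its leading genes, among them Slc7a13, a cystine and acidic amino acid transporter of S3, which had 690 ± 110 CPM there and 13.9 ± 20.4 CPM in S1-like cells. S1-like cells had 3 S1 markers among their leading genes. The sodium-glucose transporter gene Slc5a2 and the sodium-lactate transporter gene Slc5a12 had 0 UMIs in the S3-like cells of all libraries, while in S1-like cells Slc5a2 had 45.7 ± 23.2 CPM and Slc5a12 had 534 ± 124 CPM. Other listed markers differed less. The S3 marker Slc22a30 was level, at 197 ± 73.8 CPM in S3-like and 193 ± 71.6 CPM in S1-like cells. The S3 markers Atp11a (599 against 195 CPM) and Slc6a18 (231 against 79.8 CPM) were higher in S3-like cells. The S1 marker Slc4a4 had 1538 ± 257 CPM in S3-like and 2118 ± 246 CPM in S1-like cells. No cluster met the marker rule for S2. Slc22a6, a marker listed for S2, had 1988 ± 305 CPM in S3-like cells and 574 ± 170 CPM in S1-like cells. The remaining 943 proximal cells could not be named and are called other proximal cells. Median depth was 631 UMIs in S3-like cells, 726 UMIs in S1-like cells and 915 UMIs in other proximal cells.

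With the clusters used here, Acsm3 was found in S3-like cells and not in S1-like cells. S3-like cells had 46.5 CPM and 106 CPM of Acsm3 in Akita libraries and 124 CPM and 127 CPM in wild-type libraries, from 1, 10, 7 and 7 UMIs. S1-like cells had 0 UMIs in all 4 libraries, a count that allows up to 142.5 CPM in the library with the fewest S1-like UMIs and up to 16.5 CPM over the 4 libraries. Over all libraries the S3-like level of 110 CPM was 6.66 times the S1-like floor of 3 counts over the group. The counting interval of the ratio of S3-like to S1-like cells began at 5.02. This contrast depended on how the segments were drawn. On the log2(CPM + 10) scale the difference, S3-like minus S1-like, was 3.39 ± 0.60 and positive in 4 of 4 libraries (SD, n = 4), but 1.12 at Leiden resolution 0.5, 2.37 and positive in 2 of 4 libraries at resolution 2, and 0.83 and positive in 2 of 4 libraries when 37 cells with UMIs of S3 but no S1 markers were set against 544 cells with S1 but no S3 markers. With the shared barcodes left out, 9 UMIs against 0 UMIs remained, a level 3.25 times the floor. The counting interval of the ratio then began at 2.14, and wild-type replicate 1 kept only 2 S3-like cells. After thinning to 500 UMIs, 13 of 213 S3-like cells (6.10%) and 0 of 160 S1-like cells had a UMI, and the 0 allows a share of up to 1.88%.

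Acsm3 did not mark S3-like cells alone, since other proximal cells had 112 ± 51.3 CPM (SD, n = 4), about the level of S3-like cells at 101 ± 37.5 CPM. Among the unnamed proximal sub-clusters, the deepest, with 255 cells and a median of 3479 UMIs, had 173 of the 229 Acsm3 UMIs. It also had 5735 of the 10884 Acsm2, 158 of the 305 Acsm1 and 41 of the 80 Acsm5 UMIs of proximal cells. Its Acsm3 level was 62.4 CPM and 209 CPM in Akita libraries and 129 CPM and 176 CPM in wild-type libraries. Acsm3, which was left out of the clustering, was among the 10 genes that led that sub-cluster by fold. A leading gene had to be found in at least 10% of a cluster's cells, which depends on depth. Acsm3 was found in 31.7% ± 5.61 of cells there and in 6.42% ± 2.45 of S3-like cells (SD, n = 4).

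Acsm1 tended the other way. S3-like cells had 279 CPM and 117 CPM of Acsm1 in Akita libraries and 106 CPM and 36.3 CPM in wild-type libraries, whereas S1-like cells had 216 CPM and 377 CPM in Akita libraries and 327 CPM and 190 CPM in wild-type libraries. S3-like cells were lower in 3 of 4 libraries, and Akita replicate 1, with 6 and 10 UMIs, was the exception. Over all libraries the level in S3-like cells was 0.377 times that in S1-like cells (95% counting interval 0.224 to 0.617), and without the shared barcodes 0.476 times (0.211 to 1.00), an interval that reaches 1. The difference, S3-like minus S1-like, was −1.22 ± 1.09 on the log2(CPM + 10) scale (SD, n = 4).

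Acsm2 differed little between segments. It had 5859 CPM and 7418 CPM in Akita S3-like cells and 7070 CPM and 5718 CPM in wild-type S3-like cells. S1-like cells had 5003 CPM and 6270 CPM in Akita libraries and 5229 CPM and 6462 CPM in wild-type libraries. The segment ranges overlapped, S3-like cells were higher in 3 of 4 libraries, and the pooled ratio was 1.23 (95% counting interval 1.13 to 1.33), an interval that covers counting error and not the spread between libraries. Without the shared barcodes the ratio was 1.17 (1.04 to 1.32). The lowest proximal level of Acsm2 was in an unnamed sub-cluster of 221 cells led by Oat, at 2327 CPM and 2940 CPM in Akita libraries and 2493 CPM and 3304 CPM in wild-type libraries, below the S3-like and S1-like levels of every library.

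Acsm5 was too rare to place. It had 8 UMIs in S3-like cells and 11 UMIs in S1-like cells, with a pooled ratio of 0.581 whose counting interval ran from 0.203 to 1.59, and 0.721 (0.0603 to 6.30) without the shared barcodes. Akita replicate 1 had 0 UMIs in S3-like cells and wild-type replicate 2 had 0 UMIs in S1-like cells.

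Genes of other cell types also varied between these segments. Erythroid markers (3 of 3 with a UMI in S3-like and 2 of 3 in S1-like cells, led by the haemoglobin gene Hbb-bs, which headed the S3-like cluster) summed to 0 CPM and 2136 CPM in Akita S3-like cells and to 2693 CPM and 109 CPM in wild-type S3-like cells, against 58.1 to 190 CPM in S1-like cells. Macrophage and dendritic markers (4 of 7 with a UMI in S3-like cells and 5 of 7 in S1-like cells) reached at most 53.1 CPM in S3-like cells, and had 0 CPM and 1016 CPM in Akita S1-like cells and 62.9 CPM and 2946 CPM in wild-type S1-like cells. Podocyte, endothelial, mesenchymal and lymphocyte markers were at 0 in S3-like cells. Their part in the segment levels was not tested.

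A second reading of the tubule axis, added after the data had been seen, did not use clusters. Each proximal cell was placed by the share of its S1 and S3 marker UMIs that came from S3 markers, in 4 groups of under 10% (634 cells), 10 to under 30% (366 cells), 30 to under 50% (172 cells) and 50% or more (220 cells). Another 59 cells had no such marker UMI. The share is a ratio of low counts without natural limits, and 163, 174 and 98 cells lay within 5 percentage points of the 3 limits. Of the 634 cells in the lowest group, 544 had no S3 marker UMI at all, which depends on depth. Slc7a13, one of the markers that set the share, had 16.8, 223, 713 and 1098 CPM in the 4 groups in that order.

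Acsm3 was higher in the groups with a larger S3 marker share. Its means over libraries were 20.3 ± 16.1, 81.7 ± 40.9, 176 ± 73.4 and 225 ± 72.3 CPM from the lowest to the highest share (SD, n = 4), from 11, 70, 82 and 65 UMIs. In each of 3 libraries every step was upward: Akita replicate 1 reached 145 CPM in the highest group, Akita replicate 2 reached 302 CPM and wild-type replicate 1 reached 268 CPM. Wild-type replicate 2 was highest in the group of 30 to under 50%, at 242 CPM, and had 186 CPM in the highest group. The ratio of the highest to the lowest group was 13.3 over all libraries (95% counting interval 6.97 to 28.0), 9.88 (3.96 to 29.4) without the shared barcodes and 21.5 (7.86 to 82.3) in cells of at least 1000 UMIs. Median depth was 640.5, 1210.5, 1347 and 772.5 UMIs per cell in the 4 groups in order. After thinning to 500 UMIs, Acsm3 was found in 0.719%, 3.94%, 5.44% and 7.74% of cells.

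The other members had no such gradient. Acsm2 had 4754 ± 301, 4955 ± 274, 5360 ± 626 and 4933 ± 253 CPM from the lowest to the highest share, a ratio of highest to lowest of 1.07 (95% counting interval 0.998 to 1.14). Acsm1 had 167 ± 41.6, 102 ± 39.7, 190 ± 44.7 and 127 ± 37.6 CPM, and its ratio of 0.795 had an interval from 0.528 to 1.17. Acsm5 had 35.7 ± 10.2, 34.1 ± 20.1, 29.2 ± 13.3 and 51.1 ± 40.0 CPM, and its ratio of 1.57 had an interval from 0.774 to 3.10. Between the highest and the lowest group of this score, Acsm1 thus did not show a difference beyond counting error.

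**Figure D3:**
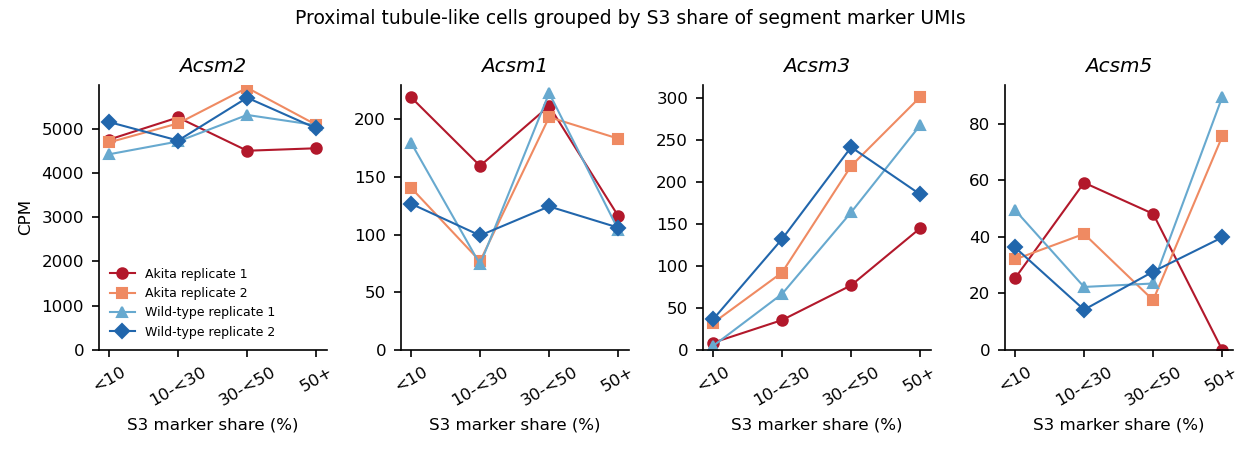
Level of each Acsm gene in CPM in proximal tubule-like cells grouped by S3 marker share, with 1 line per library. Acsm3 lies between 4.49 and 36.2 CPM in the libraries at under 10% and between 145 and 302 CPM at 50% or more, while those of Acsm2 stay near 5000 CPM throughout.

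The genotype comparison asked whether any member differed in the diabetic mice. In proximal tubule-like cells, edgeR's quasi-likelihood test on UMIs summed per library called 0 of 6108 genes (0.0%) at an adjusted p under 0.05, and none of the 4 members was called. At an unadjusted p under 0.05 there were 55 genes (0.900%), a smaller share than that threshold gives without any difference. The test was thus conservative here, and the lack of calls does not show that the members were equal. DESeq2 called 6 genes and limma-voom 53 at an unadjusted p under 0.05, and none at the adjusted threshold. Fold changes are Akita over wild type on the log2 scale. Their standard errors were derived from edgeR's fold change and test statistic, since its test reports none. Acsm1 was at 0.37 ± 0.26 (adjusted p = 0.9998), Acsm5 at 0.27 ± 0.39, Acsm2 at 0.03 ± 0.28 and Acsm3 at −0.26 ± 0.40, and the unadjusted p-values were 0.168, 0.495, 0.922 and 0.529 in that order. Both Akita libraries were above both wild-type libraries for 2 of the 4 members, Acsm1 and Acsm5, a pattern that 11.7% of all genes tested showed, and below them for 0 of 4, against 11.1% of all genes.

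The Acsm3 levels of the libraries ran in the same order as their share of S3-like cells. Of the 229 Acsm3 UMIs in proximal cells, 25 were in S3-like cells and 204 in other proximal cells. S3-like cells were 14.3% and 25.4% of proximal cells in Akita libraries and 16.0% and 25.8% in wild-type libraries, and the Acsm3 levels were 46.2 CPM and 135 CPM against 78.5 CPM and 148 CPM. Within S3-like cells, both Akita libraries, at 46.5 CPM and 106 CPM, were below both wild-type libraries, at 124 CPM and 127 CPM, a pattern that 12.5% of genes tested in S3-like cells showed, with 1 UMI behind the lowest value. Within the group of at least 50% S3 marker share the genotypes overlapped, at 145 CPM and 302 CPM in Akita libraries and 268 CPM and 186 CPM in wild-type libraries. The part of segment make-up in the library differences was not tested.

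The direction of Acsm3 depended on which libraries and barcodes entered. Without Akita replicate 1 its log2 fold change was 0.31 ± 0.32 and without wild-type replicate 2 it was 0.20 ± 0.40, whereas leaving out Akita replicate 2 gave −1.35 ± 0.40 (edgeR adjusted p = 0.183) and leaving out wild-type replicate 1 gave −0.61 ± 0.38. When every shared barcode was assigned to a single file, chosen by which of the observed groups of UMI ratios between both files it was nearest to, it was 0.43 ± 0.65, and with the opposite choice −1.16 ± 0.35 (unadjusted p = 0.00427, edgeR adjusted p = 0.655). With the shared barcodes left out it was 0.05 ± 0.80. For Acsm1 the value was 0.75 ± 0.28 with each shared barcode kept in 1 file (unadjusted p = 0.0195, edgeR adjusted p = 0.9997) and −0.01 ± 0.34 when kept in the opposite file.

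**Figure D4:**
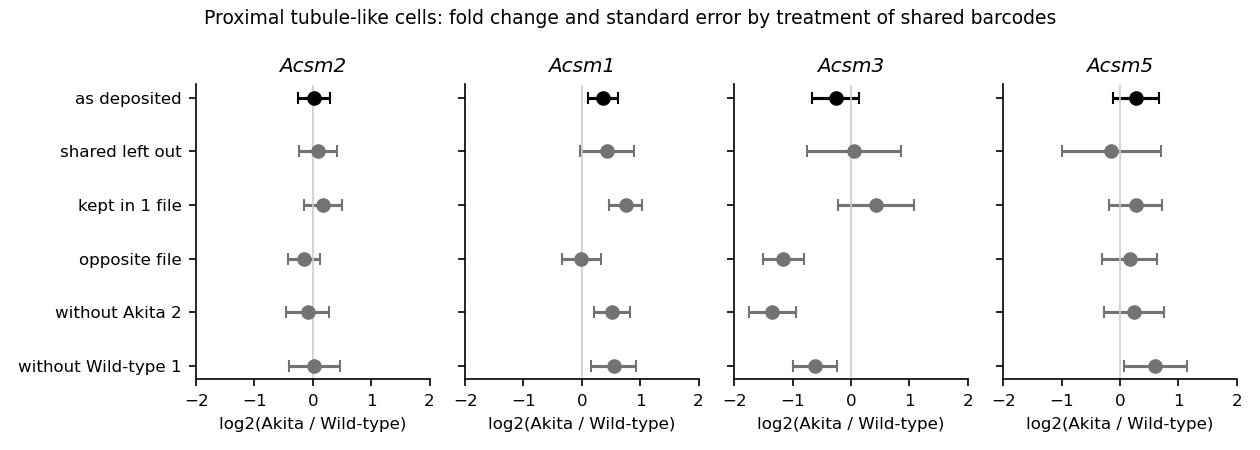
Log2 fold change, Akita over wild type, of each Acsm gene in proximal tubule-like cells with a standard error derived from edgeR's test statistic, under 6 choices of cells and libraries. Acsm2 stays near 0, Acsm3 lies at −1.35 without Akita replicate 2 and at 0.43 with each shared barcode kept in 1 file, and no value passed the adjusted threshold.

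Within segments, edgeR could test Acsm1 and Acsm2 in S1-like cells and Acsm2 in S3-like cells, and called 0 of 597 and 0 of 773 genes (0.0% each), with 6 and 4 at an unadjusted p under 0.05. In S1-like cells the log2 fold change was 0.03 ± 0.47 for Acsm1 and −0.02 ± 0.33 for Acsm2, and in S3-like cells it was 0.05 ± 0.28 for Acsm2. In S3-like cells Acsm1 was not tested for its low counts, and its Akita values of 279 CPM and 117 CPM were above the wild-type values of 106 CPM and 36.3 CPM, as 11.3% of the genes tested in these cells were. Over all retained cells 0 of 7169 genes were called and 68 (0.949%) had an unadjusted p under 0.05. The log2 fold changes there were 0.32 ± 0.25 for Acsm1, −0.03 ± 0.23 for Acsm2, −0.34 ± 0.39 for Acsm3 and 0.21 ± 0.39 for Acsm5.

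The balance within the family was also compared, as a member's share of all UMIs of the 4 genes in proximal cells. Acsm2 made up 94.7% and 94.3% in Akita libraries, against 95.0% and 94.6% in wild-type libraries. Acsm1 made up 3.60% and 2.50% in Akita libraries, against 2.66% and 2.09% in wild-type libraries, and Acsm3 made up 0.90% and 2.47% in Akita libraries, against 1.58% and 2.76% in wild-type libraries. Acsm5 was the smallest member, at 0.81% and 0.71% in Akita libraries and 0.77% and 0.51% in wild-type libraries. The genotypes overlapped for each member, and a two-sided exact permutation test gave p = 0.667 in each case, where the smallest p that 2 against 2 libraries allow is 0.33.

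The share of proximal cells with a UMI was compared after thinning to 500 UMIs per cell. For Acsm2 it was 83.4% and 86.8% in Akita libraries and 84.8% and 89.6% in wild-type libraries, and for Acsm3 1.14% and 3.54% in Akita libraries and 1.98% and 5.81% in wild-type libraries. Acsm1 had 7.43% and 7.07% in Akita libraries and 7.34% and 4.15% in wild-type libraries. Each of these overlapped between genotypes (exact permutation p = 0.667, two-sided). Acsm5 had 1.14% and 0.96% in Akita libraries and 1.41% and 1.24% in wild-type libraries, with no overlap, and an exact permutation p of 0.33, the smallest possible. This direction was opposite to that of its CPM levels, and few cells lie behind these shares. Without thinning they overlapped, at 5.31% and 4.31% in Akita libraries and 4.97% and 4.04% in wild-type libraries. How many of all genes separate by this measure was not computed.

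Neighbouring genes bear on how these counts can be read. The submitters' strand setting for counting is not given in the sources used here, so reads from a gene and from one on the other strand of the same bases cannot be told apart. Of the 4 members, Acsm2 overlapped no gene in the annotation. Acsm1 contains a pair of antisense genes, named here after their values were seen. Gm19950 (chr7:119607681-119643469, minus strand) had 1150 UMIs in proximal cells and Gm45792 (chr7:119626519-119631058, minus strand) had 957 UMIs, against 305 UMIs for Acsm1, and neither shares an exonic base with Acsm1.

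Both antisense genes were far lower outside the proximal tubule, as Acsm1 was. Gm19950 had 529 ± 61.0 CPM in proximal cells and 66.8 ± 48.3 CPM in the distal cluster, and Gm45792 had 435 ± 35.9 CPM in proximal cells and 8.18 to 59.9 CPM in the distal cluster (SD, n = 4). Between segments, Gm19950 had 356 ± 105 CPM in S3-like and 276 ± 122 CPM in S1-like cells, with overlap. Gm45792 had 163 to 186 CPM in S3-like cells and 151 to 410 CPM in S1-like cells. By genotype, Gm19950 had 603 CPM and 469 CPM in Akita proximal cells, against 489 CPM and 554 CPM in wild-type proximal cells, which overlapped.

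**Figure D5:**
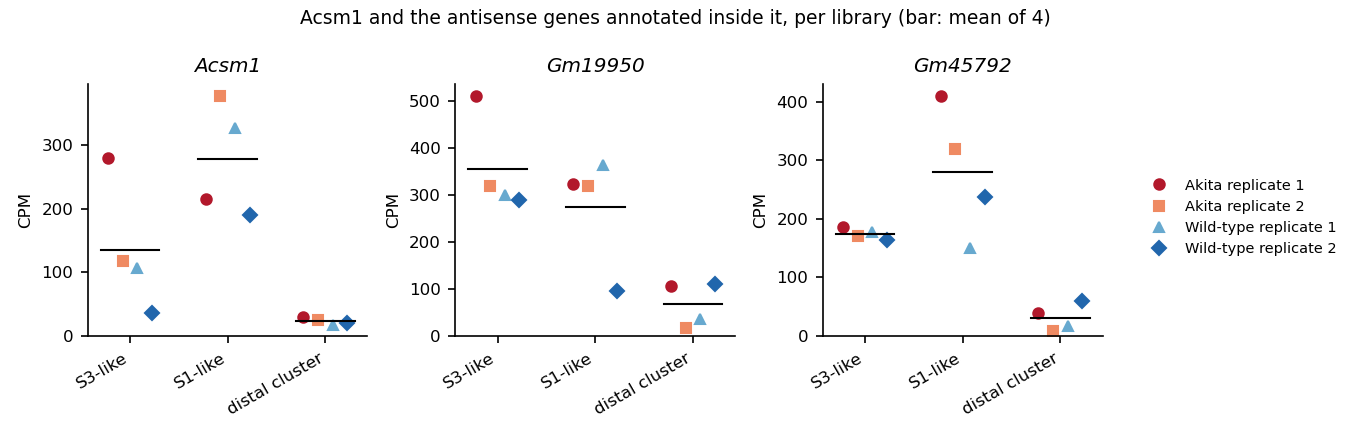
Level of Acsm1 and of the antisense genes Gm19950 and Gm45792 in CPM, 1 point per library and a bar at the mean of 4. All 3 genes have their lowest mean in the distal cluster, and only Acsm1 has a mean in S3-like cells below its value in each S1-like library.

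Acsm3 shares 1962 exonic bases, 39.7% of its exonic length, with Eri2 on the opposite strand, which also covers the 3′ end of Acsm3. Eri2 had 24 UMIs in proximal cells, all outside the S3-like and S1-like clusters, against 229 UMIs of Acsm3. Acsm5 shares 104 exonic bases (2.74%) with Pdilt, which had 5 UMIs in proximal cells. None of the 4 members shared a run of 31 bases in the last 500 bases of its transcripts with a transcript of another gene.

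Among other acyl-CoA synthetases, a list of Acsm4 and genes outside the Acsm family that was chosen with earlier results of these data known, 12 of 17 had a UMI in proximal cells, 8 were tested between genotypes and 0 were called by edgeR, with a median log2 fold change of −0.01 against 0.00 over all genes tested. The most abundant was Slc27a2, a very-long-chain acyl-CoA synthetase of peroxisomes, at 1339 ± 186 CPM, well below Acsm2. Slc27a2, which is also one of the markers that named proximal cells, had 1514 ± 202 CPM in S3-like and 452 ± 118 CPM in S1-like cells with no overlap between libraries. The acetate-activating enzyme gene of mitochondria, Acss1, had 9.85 ± 11.4 CPM in S3-like and 395 ± 80.1 CPM in S1-like cells and was one of the genes that led the S1-like cluster. Acsl1, a long-chain acyl-CoA synthetase gene, had 51.0 ± 39.4 CPM in S3-like and 225 ± 75.6 CPM in S1-like cells, and Acss2, the cytosolic acetate-activating enzyme gene, overlapped between segments at 131 ± 29.5 CPM and 207 ± 69.5 CPM in that order.

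Of 4 glycine conjugation genes, whose enzymes act on acyl-CoA thioesters, 2 were abundant. Glyat, which joins glycine to benzoyl-CoA and similar thioesters, had 1524 ± 104 CPM in proximal cells, and Keg1, a member of the same family, had 876 ± 133 CPM. Keg1 was higher in S3-like (881 ± 98.2 CPM) than in S1-like cells (564 ± 125 CPM) without overlap, while Glyat had 1108 ± 197 CPM in S3-like and 1542 ± 224 CPM in S1-like cells, with overlap. Gm4952 had 4 UMIs and Glyatl3 had 0 UMIs. Between genotypes 2 of 4 were tested, 0 were called by edgeR and the median log2 fold change was −0.06.

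All 14 medium-chain beta-oxidation genes had UMIs in proximal cells. Acadm, the medium-chain acyl-CoA dehydrogenase gene, had 924 ± 218 CPM in S3-like and 435 ± 229 CPM in S1-like cells, and Acadl, the long-chain dehydrogenase gene, had 609 ± 60.8 CPM in S3-like and 252 ± 60.4 CPM in S1-like cells. Etfa, which encodes a subunit of the electron transfer flavoprotein that takes their electrons, had 500 ± 49.7 CPM in S3-like and 306 ± 88.7 CPM in S1-like cells. These 3 were higher in S3-like cells without overlap between libraries, whereas Etfb, the other subunit, overlapped at 779 ± 116 CPM in S3-like and 885 ± 154 CPM in S1-like cells. Between genotypes, 13 of 14 were tested, 0 were called by edgeR, the median log2 fold change was −0.09, and 4 (Etfb, Decr1, Acaa2 and Eci1) had both Akita libraries below both wild-type libraries, which 11.1% of all genes did.

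Organic anion transport genes, some of whose products carry glycine conjugates across the tubule wall, had UMIs for 7 of 7. Slc22a6, the basolateral organic anion transporter named above, was the most abundant at 1677 ± 183 CPM in proximal cells. The phosphate and urate transporter gene Slc17a3 had 1002 ± 143 CPM in S3-like and 453 ± 145 CPM in S1-like cells, and the urate transporter gene Slc22a12 had 1077 ± 226 CPM in S3-like and 670 ± 102 CPM in S1-like cells, neither with overlap between libraries. Slc17a1, a related anion transporter gene, overlapped at 429 ± 158 CPM in S3-like and 401 ± 98.3 CPM in S1-like cells. Between genotypes 6 of 7 were tested, 0 were called by edgeR and the median log2 fold change was 0.12.

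Genes whose pattern was most like that of each member were ranked by Pearson's r of log2(CPM + 10) over 8 points, the S3-like and S1-like cells of each library. The ranking covered 2809 genes of at least 50 CPM over all retained cells, a limit that need not hold at each point. These points share libraries and depth, so r is a description. For Acsm3 the leading genes were Gm7908 (r = 0.981), Nudt19 (0.978), a peroxisomal coenzyme A hydrolase, and Tmigd1 (0.974). Nudt19 had 930 to 1127 CPM in S3-like cells and 86.3 to 151 CPM in S1-like cells. For Acsm1 they were Cwf19l2 (0.971), Cdh16 (0.948), which encodes the kidney cadherin, and Lias (0.948), which encodes lipoic acid synthetase. Some of these genes had few UMIs at a point. Gm7908 had 0 CPM in the S1-like cells of every library. In S3-like cells Lias had 0 to 46.5 CPM, and Cwf19l2 had 18.2 CPM in wild-type replicate 2. Acsm2, with little variation to match, had Ssr4 (0.878), Tmem106b (0.865) and Agpat3 (0.857), and Acsm5, at 0 to 7 UMIs per point, had Ftsj3 (0.991), Tspan33 (0.953) and Hp1bp3 (0.936).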

How the data were processed

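Drop-seq libraries of renal cortex from 2 Akita and 2 wild-type mice were analysed. The deposited values are raw UMI counts by gene and barcode. The submitters' processing notes list GRCm38, featureCounts 1.6.0, STAR 2.5.2b and UMI-tools 0.5.3, without their roles. In each file 4 strings were not barcodes (1.08% to 1.33% of UMIs) and were left out, and 19 to 26 identifiers had no GENCODE symbol. Barcodes with at least 200 genes and at most 50% mitochondrial UMIs were retained. No doublet caller was run and no cell was removed as a doublet.

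Cells were clustered by the Leiden method (leidenalg 0.10.2, scanpy 1.11.5) at resolution 1, from log values of counts scaled to 10000 per cell, with 2000 variable genes that left out the 4 Acsm genes, 30 components and 15 neighbours, and proximal clusters were clustered again for segments. A cluster was named from at least 3 markers among its 50 leading genes by fold, more than for any other type. The members, markers and gene lists were chosen with earlier results of these data known. Named genes are the 4 members, the 4 most abundant of each list and the 3 most alike per member. Others were chosen after their values were seen.

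UMIs were summed per library and compared with edgeR 4.0.16 in R 4.3.3 (TMM, filterByExpr, quasi-likelihood, two-sided, Benjamini-Hochberg over all genes tested, threshold 0.05), with DESeq2 1.42.0 and limma-voom 3.58.1 as alternatives. Intervals of ratios are exact at 95% and cover counting error only. Retained cells held 557780 to 812747 UMIs per library, of which 433086 to 650072 in proximal cells, where a count of 0 (limit of 3 counts) allows at most 6.93 CPM. The series gives 2 mice per genotype, and p-values rest on the spread between these few samples. Other alternatives were filters on cells and genes, thinning depth, clustering resolution, the treatment of shared barcodes, a replicate block and leaving out each library.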

Additional observations from a re-analysis of the deposited data

Results flagged for a closer look

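Acsm1 was higher in Akita than in wild-type libraries among barcodes that were not retained as cells, which no genotype comparison above used. In these barcodes Acsm1 had 71.8 CPM and 69.5 CPM in Akita libraries (32 and 30 UMIs), a mean of 70.7 ± 1.66 CPM, against 23.1 CPM and 30.3 CPM in wild-type libraries (11 and 12 UMIs), a mean of 26.7 ± 5.08 CPM (SD, n = 2 each). It stood out because both Akita libraries were above both controls in data outside the retained cells, a pattern that 326 of the 4644 genes with at least 20 UMIs in these barcodes showed (7.02%). Acsm3 separated the other way, at 11.2 CPM and 16.2 CPM in Akita libraries against 16.8 CPM and 37.8 CPM in wild-type libraries, as 23.8% of these genes did, and Acsm2 and Acsm5 overlapped. The difference was not tested in these barcodes alone. Over every deposited barcode, retained or not, the log2 fold change of Acsm1 was 0.56 ± 0.24 (edgeR unadjusted p = 0.0293, adjusted p = 0.9997). In retained proximal cells Acsm1 was not called.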

How the results depend on the processing

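Of 175 refitted log2 fold changes of the members 143 kept their direction and none was called, of 60 refitted segment differences 51 kept to within the spread between libraries, as did 44 of 48 class differences, and the gene lists gave 0 calls in all 64 refits. The exceptions follow, and the cause was not tested for any of them. Keeping within the spread is a weak criterion for segment and class differences. Leaving out 1 of 4 libraries cannot move a mean beyond their SD, so those refits could not fail. The SD of the segment difference was also wide for Acsm1 (1.09) and Acsm5 (1.35). Alternatives that keep shared barcodes in the opposite file, cross the replicate numbers, or combine the block with shared barcodes kept in 1 file were chosen after seeing the data.

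Against 0 called genes, no filter gave 1 over all cells and 1 in proximal cells, the opposite file gave 6 and 5, and the replicate block with shared barcodes kept in 1 file gave 12 in proximal and 1 in S3-like cells, where 1 file alone also gave 1. Leaving out a library gave 0 to 23 calls over all cells, 0 to 14 in proximal, 0 to 3 in S1-like and 0 to 4 in S3-like cells. Without Akita replicate 2 there were 23 over all and 11 in proximal cells, without wild-type replicate 1 14 and 14, without Akita replicate 1 1 and 2, and without wild-type replicate 2 0 and 0.

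Log2 fold changes turned sign as follows. Over all cells, Acsm2 was 0.012 at no more than 25% mitochondrial UMIs and 0.024 with every barcode, Acsm3 was 0.23 with 1 file and 0.36 with the block added, and Acsm5 was −0.24 without shared barcodes; leaving out a library gave −0.11 to 0.024, −1.40 to 0.21 and −0.028 to 0.50. In proximal cells, Acsm1 was −0.011 with the opposite file, Acsm2 −0.0091 without a filter and −0.15 with the opposite file, Acsm3 0.050 without shared barcodes, 0.43 with 1 file and 0.57 with the block added, and Acsm5 −0.15 without shared barcodes; leaving out a library gave −0.086 to 0.12 for Acsm2 and −1.35 to 0.31 for Acsm3. In S1-like cells, Acsm1 was −0.15 by limma-voom and −0.059 without a filter, and Acsm2 0.18 with 1 file, 0.15 at 500 genes and 0.16 with the block added; leaving out a library gave −0.41 to 0.60 and −0.20 to 0.081. In S3-like cells, Acsm2 was −0.054 without a filter, −0.057 with the opposite file and −0.25 to 0.23 leaving out a library.

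S3-like minus S1-like log2 differences moved for Acsm3 from 3.39 to 2.18 without shared barcodes, 2.46 with 1 file, 1.12 at resolution 0.5, 2.37 at resolution 2, 2.76 with the members kept in the clustering and 0.83 for cells with S3 but no S1 markers against cells with S1 but no S3 markers; the last gave −0.22 for Acsm2. Acsm5 moved to −1.77 at 25% mitochondrial UMIs and 0.96 at resolution 2. Proximal minus distal differences moved for Acsm1 to 1.91 with 1 file, 2.46 with the opposite file and 1.98 at 25% mitochondrial UMIs, and for Acsm2 to 4.84 without shared barcodes. Family share differences turned to 0.97 for Acsm2 with the opposite file, 1.26 and 0.37 for Acsm3 without shared barcodes and with 1 file, and −0.55 for Acsm5 without shared barcodes. Differences in the share of cells turned to −0.55 for Acsm1 at 500 genes, 1.61 and 2.80 for Acsm2 and Acsm3 without shared barcodes, 0.49 for Acsm3 thinned to 1000 UMIs, and 0.31 for Acsm5 unthinned.

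A replicate block on the labels' numbers gave 0 calls in all 4 sets of cells (proximal Acsm1 0.38, Acsm3 −0.39). Deviations of same-numbered libraries had a correlation of −0.135 over 2812 genes. With 2 libraries per genotype, and barcodes shared by Akita replicate 2 and wild-type replicate 1, this cannot decide whether the numbers pair samples. The crossed replicate block gave 0 calls in each set. The S3-like fit without shared barcodes was not run, since too few cells remained. Low counts, down to 0 UMIs of Acsm3 and Acsm5 in a segment of a library, limit the precision of their segment differences.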
